A study of Mus musculus with 30 samples.

Results

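The 37 genes described here encode the enzymes and transporters through which a cell takes up glucose, splits it to pyruvate and lactate, and stores or releases glycogen. They were listed by gene symbol for their role in this pathway, with earlier results of these data known. They cover the steps from hexokinase to lactate dehydrogenase, the PFKFB enzymes that set the level of a phosphofructokinase activator, the breakdown, synthesis and regulation of glycogen, and the transport of glucose and lactate. All 37 were found in both count tables, among 54838 genes in the kidney and 55487 in the gastrocnemius. After the filter on low counts 36 were tested in the kidney and 37 in the gastrocnemius. The missing one was Ppp1r3a, the skeletal muscle subunit that brings protein phosphatase 1 to glycogen, with at most 1 count in any kidney library.

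Polyadenylated RNA of the kidney and of the gastrocnemius, a calf muscle, was sequenced from wild-type male C57BL/6J mice housed at thermoneutrality (30 to 32 °C) from 6 weeks of age. From Week 7 they received the control chow diet with water (CD), a western diet with water (WD), or the western diet with cyclo(His-Pro), a cyclic dipeptide, at 20 mg/kg by gavage 3 times a week (WD + CHP). Mice were euthanised in Week 24 after a 3-h fast. Each tissue had 5 libraries per group, 30 in all, and each library came from a single mouse. Whether the kidney and muscle libraries came from the same mice was not stated, and both were treated as independent. There was no group that received CHP on the control diet. The extraction note of the sample records names liver for both tissues, whereas the methods of the study name kidney and gastrocnemius. The 8 proximal tubule markers summed to 30705 to 38617 CPM (counts scaled to a common library size) in the kidney libraries and to 0.134 to 2.01 in the muscle libraries. The 10 fast fibre markers summed to 173914 to 236170 CPM in muscle and to 18.1 to 29.5 in kidney.

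Glycolysis runs in every cell, but tissues build it from different gene copies. Skeletal muscle uses muscle forms of phosphofructokinase, phosphoglycerate mutase, enolase and glycogen phosphorylase, which serve rapid ATP supply during contraction. In the kidney the proximal tubule makes glucose and burns fatty acids, and glycolysis is strongest in the distal nephron and medulla. Within cells, hypoxia-inducible factors and MYC are known activators of many glycolytic genes. Glycogen phosphorylase, switched on by phosphorylase kinase, releases glucose 1-phosphate, and glycogen synthase with the branching enzyme rebuilds the polymer.

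Libraries held 37189192 to 38211422 counts in the kidney and 50319024 to 53282969 in the gastrocnemius. CPM values use library sizes scaled by the trimmed mean of M-values (TMM), separately in each tissue. The 37 genes together took 0.602% to 0.714% of the kidney counts. In muscle they took 5.91% to 6.23% of the counts in CD, 5.03% to 5.65% in WD and 5.57% to 5.87% in WD + CHP, so that the WD libraries lay below all CD libraries and the WD + CHP libraries overlapped WD. Mitochondrially encoded genes took 7.74% to 10.2% of the muscle counts in CD, 9.09% to 10.5% in WD and 9.49% to 11.5% in WD + CHP.

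The tissues differed in which copy of each enzyme they used. Levels between genes are given here as mean CPM per kilobase of exon on CD (± SD, n = 5). The length is the union of all annotated exons of a gene, such as 4133 bases for Gapdh and 1570 for Ldhb. It can exceed the length of the transcript made, so the order of genes depends on it. In muscle the highest was Aldoa (aldolase A) at 5609 ± 240, followed by Pygm (muscle glycogen phosphorylase) at 3589 ± 267, Eno3 (muscle enolase) at 2507 ± 188 and Gapdh (glyceraldehyde-3-phosphate dehydrogenase) at 2087 ± 108. Pgam2 (muscle phosphoglycerate mutase) reached 1430 ± 114 and Pfkm (muscle phosphofructokinase) 1372 ± 92.1, neighbours that did not differ beyond their spread. In the kidney the order was Ldhb (the lactate dehydrogenase subunit of oxidative tissues) at 528 ± 28.4, Gapdh at 376 ± 12.5, Aldoa at 238 ± 7.61, Tpi1 (triosephosphate isomerase) at 156 ± 10.8 and Ldha (the muscle-type lactate dehydrogenase subunit) at 155 ± 9.23. Tpi1 and Ldha could not be ordered. The tables were scaled separately, so these levels are not a test between tissues.

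As shares of each enzyme family, muscle used nearly 1 gene per step. On CD, Pfkm made up 99.8% of phosphofructokinase, Pgam2 99.8% of phosphoglycerate mutase, Eno3 99.5% of enolase, Pygm 99.9% of glycogen phosphorylase, and Hk2 (the insulin-responsive hexokinase) 96.0% of the hexokinases. In the kidney Pfkm held 55.6%, Pgam2 53.9% and Pygb (brain-type phosphorylase) 59.2% of their families. The exon union is 6675 bases for Pfkl and 3340 for Pfkm, and 1982 for Pgam1 and 840 for Pgam2. The lead of Pfkm and Pgam2 in the kidney depends on these lengths. Kidney hexokinase was 96.0% Hk1 and its enolase 96.4% Eno1.

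**Figure D1:**
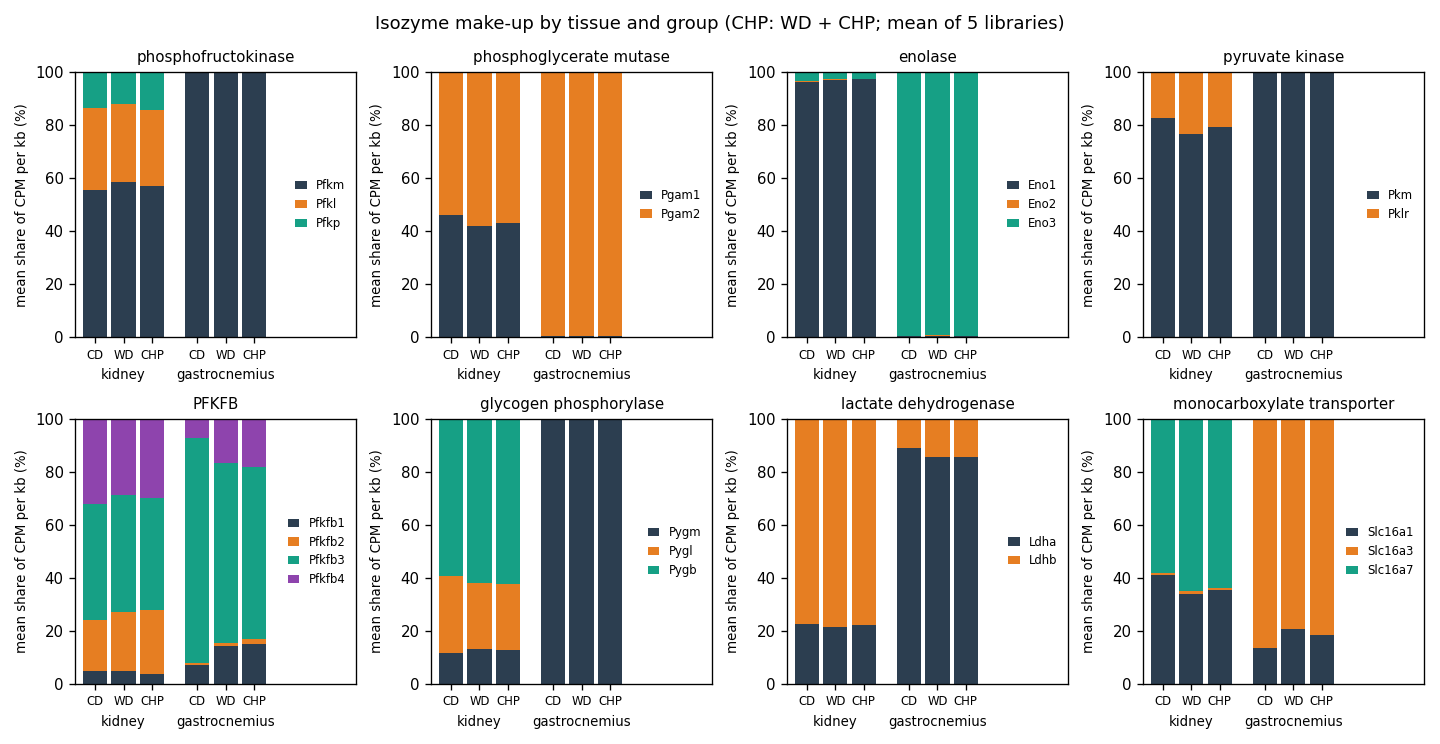
Mean share of CPM per kilobase (%, y axis) held by each isozyme of 8 families in CD, WD and WD + CHP (marked CHP), with the kidney on the left and the gastrocnemius on the right of each panel. Muscle is drawn from nearly 1 gene per family except for PFKFB, lactate dehydrogenase and the monocarboxylate transporters, and the Pfkfb3 share of muscle falls from 84.9% on CD to 68.0% on WD.

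In WD vs. CD of the gastrocnemius, 15 of 37 genes passed an adjusted p of 0.05 in edgeR's quasi-likelihood test, against 8.63% of the 15419 genes tested. Of these, 10 were lower (background 3.96%) and 5 higher (background 4.67%). The median log2 fold change of the 37 was -0.12, with 24 below 0, beside 0.00 over all genes. Of the 81 genes with a mean log2 CPM of 10 or more in muscle, 11 belonged to the 37. The other 70 had a median of -0.02, and 11 of them were called, 7 lower. In whole tissue, fewer cells of a type and less RNA per cell cannot be told apart.

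**Figure D2:**
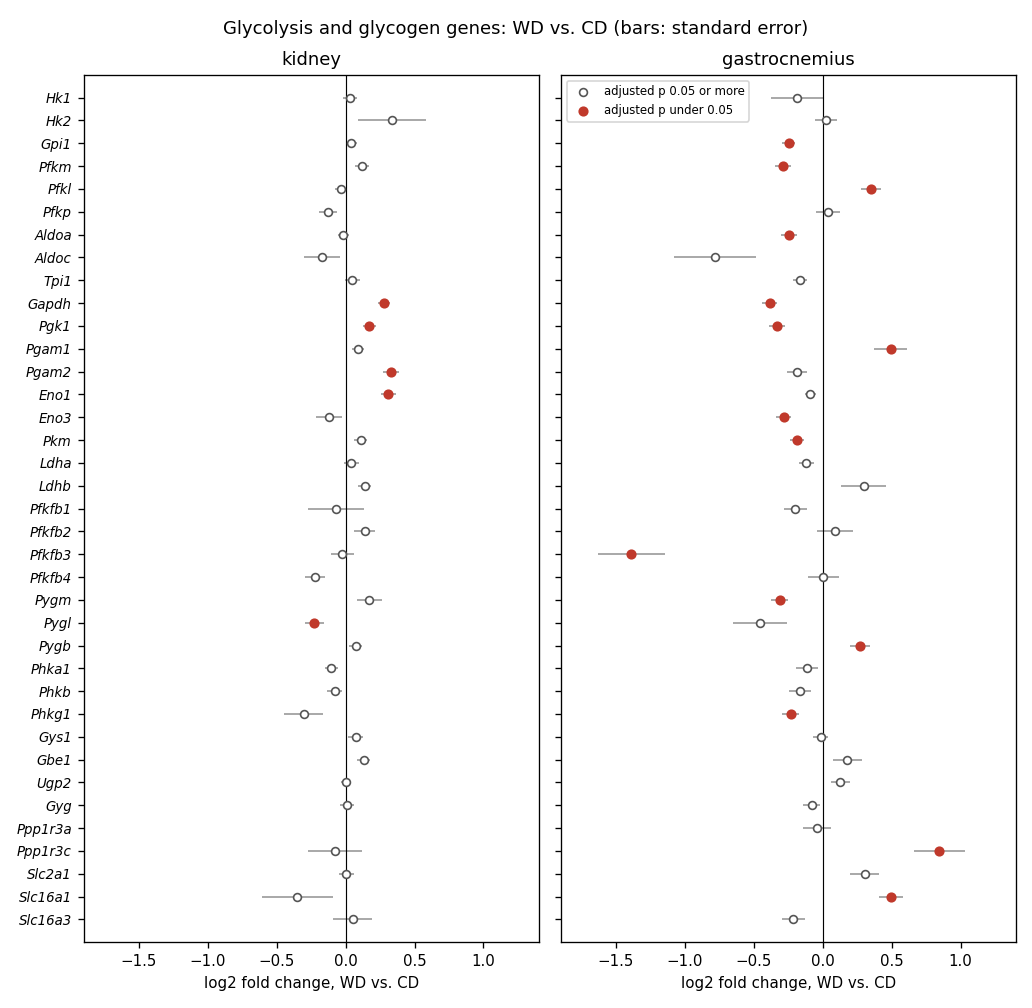
Log2 fold change of WD vs. CD (x axis) with its standard error (bars) for each of the 37 genes (y axis), kidney on the left and gastrocnemius on the right. Red points passed an adjusted p of 0.05: 4 higher and 1 lower in the kidney, 5 higher and 10 lower in the gastrocnemius, with Ppp1r3a not tested in the kidney.

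Of the upper steps of glycolysis, Gpi1, Pfkm and Aldoa fell in muscle, whereas the hexokinases and Tpi1 did not pass the test. Gpi1, which turns glucose 6-phosphate into fructose 6-phosphate, measured 1065, 1035, 1150, 1199 and 1161 CPM in the CD libraries and 936, 896, 973, 973 and 953 in WD. All WD libraries lay below all CD libraries, and the log2 fold change was -0.25 ± 0.05 (SE; adjusted p = 0.00401). Pfkm, the committed step, measured 4294, 4253, 4628, 4968 and 4772 CPM on CD and 3934, 3520, 3933, 3722 and 3646 on WD. These groups did not overlap, with a change of -0.29 ± 0.06 (adjusted p = 0.00396). Aldoa, which splits the doubly phosphorylated fructose, measured 16956, 15508, 15869, 17133 and 16171 CPM on CD and 13341, 12696, 13456, 14675 and 14726 on WD. It had the highest level per kilobase of the 37 genes and fell by 0.24 on the log2 scale (adjusted p = 0.0151), again without overlap. Hk2 (log2 fold change 0.02, adjusted p = 0.887), Hk1 (-0.19, 0.584) and Tpi1 (-0.17, 0.0564) remained above the threshold.

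Of the lower steps, Gapdh, Pgk1, Eno3 and Pkm fell, whereas Pgam2 and Ldha did not pass the test. Gapdh, the oxidation step that yields NADH, measured 8907, 8123, 8154, 8919 and 9016 CPM on CD and 6588, 6258, 6424, 6991 and 6748 on WD. The 2 groups were wholly separate, and Gapdh had the lowest p of the 37 genes (log2 fold change -0.39 ± 0.05, adjusted p = 0.000411). Pgk1, which makes the first ATP of the pathway, measured 951, 821, 940, 982 and 914 CPM on CD against 751, 712, 724, 751 and 725 on WD. The WD values were tightly grouped below all CD values (-0.33 ± 0.05, adjusted p = 0.00142). Eno3 measured 4328, 3898, 4614, 4724 and 4237 CPM on CD and 3427, 3383, 3610, 3766 and 3724 on WD. Its groups did not overlap (-0.28 ± 0.06, adjusted p = 0.00506). Pkm (pyruvate kinase M) measured 3157, 2843, 3037, 3182 and 3017 CPM on CD and 2640, 2508, 2633, 2793 and 2826 on WD (-0.19 ± 0.05, adjusted p = 0.0298). Its groups were narrowly apart, and its call held in 3 of the 10 fits that left out 1 CD or WD library. It was lost without CD replicate 1, 3, 4 or 5 and without WD replicate 1, 2 or 3, at an adjusted p of up to 0.0793. Pgam2 (-0.19, adjusted p = 0.113), Ldha (-0.12, 0.224), Ldhb (0.30, 0.286) and Eno1 (-0.09, 0.161) did not pass.

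The largest change of all 37 was in the regulator Pfkfb3, whose product makes the allosteric activator of phosphofructokinase. It measured 978, 786, 1087, 849 and 1065 CPM on CD and 245, 259, 579, 318 and 419 on WD. Every WD library was below every CD library, although WD replicate 3 stood highest among them. The WD level was 0.382 of the CD level (log2 fold change -1.39 ± 0.24, adjusted p = 0.00200). Leaving out any 1 CD or WD library kept the call, at log2 fold changes from -1.62 to -1.28. The other PFKFB genes did not pass: Pfkfb1 -0.20 (adjusted p = 0.158), Pfkfb2 0.09 (0.718) and Pfkfb4 0.01 (0.986).

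Among the genes of glycogen breakdown, Pygm and Phkg1 were lower on WD. Pygm, which cuts glucose 1-phosphate from glycogen, measured 10719, 10522.5, 12209, 12319 and 11975 CPM on CD and 9238, 8886, 9197, 9861 and 9307 on WD. The groups were separate, with a change of -0.31 ± 0.06 (adjusted p = 0.00588). Phkg1, the catalytic subunit of muscle phosphorylase kinase, measured 547, 483, 580, 567 and 525 CPM on CD and 424, 451, 449, 515 and 460 on WD. WD replicate 4 reached into the CD range, and the change was -0.23 ± 0.06 (adjusted p = 0.0243). That call was lost without CD replicate 3 or 4 and without WD replicate 1, 2 or 3, at an adjusted p of up to 0.0664. The regulatory subunits Phka1 (-0.11, adjusted p = 0.427) and Phkb (-0.17, 0.211) did not pass. On the synthesis side neither Gys1 (muscle glycogen synthase, -0.02, adjusted p = 0.894) nor Gbe1 (branching enzyme, 0.18, 0.323), Ugp2 (which makes UDP-glucose, 0.13, 0.270), Gyg (the glycogenin primer, -0.08, 0.456) and Ppp1r3a (-0.04, 0.842) passed.

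The 5 genes that rose in muscle were a lactate transporter, a glycogen-targeting subunit and 3 minor isozymes. Slc16a1, the monocarboxylate transporter MCT1 that carries lactate into oxidative cells, measured 36.0, 39.1, 35.0, 37.5 and 39.0 CPM on CD and 55.1, 55.2, 61.5, 43.4 and 47.5 on WD. Every WD library was above every CD library (log2 fold change 0.49 ± 0.09, adjusted p = 0.00212). Ppp1r3c, also called PTG, which ties protein phosphatase 1 to glycogen and favours its synthesis, measured 353, 456, 444, 428 and 430 CPM on CD and 783, 894, 500, 781 and 837 on WD. The lowest WD library, that of replicate 3, was still above the highest CD library (0.85 ± 0.19, adjusted p = 0.00957). Without WD replicate 3 or any other single library the call was kept, at log2 fold changes from 0.78 to 0.96. The export transporter Slc16a3 (MCT4) was at -0.21 (adjusted p = 0.125), and the glucose transporter Slc2a1 (GLUT1) at 0.30 (0.0836).

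The minor isozymes that rose were low in muscle. Pgam1, the non-muscle mutase, measured 4.70, 5.32, 4.05, 4.89 and 5.09 CPM on CD and 7.11, 6.12, 8.44, 5.98 and 6.202 on WD (log2 fold change 0.49 ± 0.12, adjusted p = 0.0157). Pfkl, the liver phosphofructokinase, measured 10.2, 11.6, 10.8, 9.28 and 11.87 CPM on CD and 14.9, 13.8, 14.4, 13.7 and 11.89 on WD (0.35 ± 0.07, adjusted p = 0.00631). WD lay wholly above CD for either gene, narrowly so for Pfkl. Pygb measured 9.40, 10.7, 9.19, 8.67 and 8.22 CPM on CD and 11.5, 11.2, 12.8, 10.3 and 9.90 on WD, with overlap (0.27 ± 0.07, adjusted p = 0.0321). Its call was lost without CD replicate 1, 3, 4 or 5 and without WD replicate 1, 2 or 3, at an adjusted p of up to 0.0831. Pfkp (0.04, adjusted p = 0.846), Aldoc (-0.78, 0.115, on at most 26 counts in a library) and Pygl (-0.45, 0.163) did not pass.

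**Figure D3:**
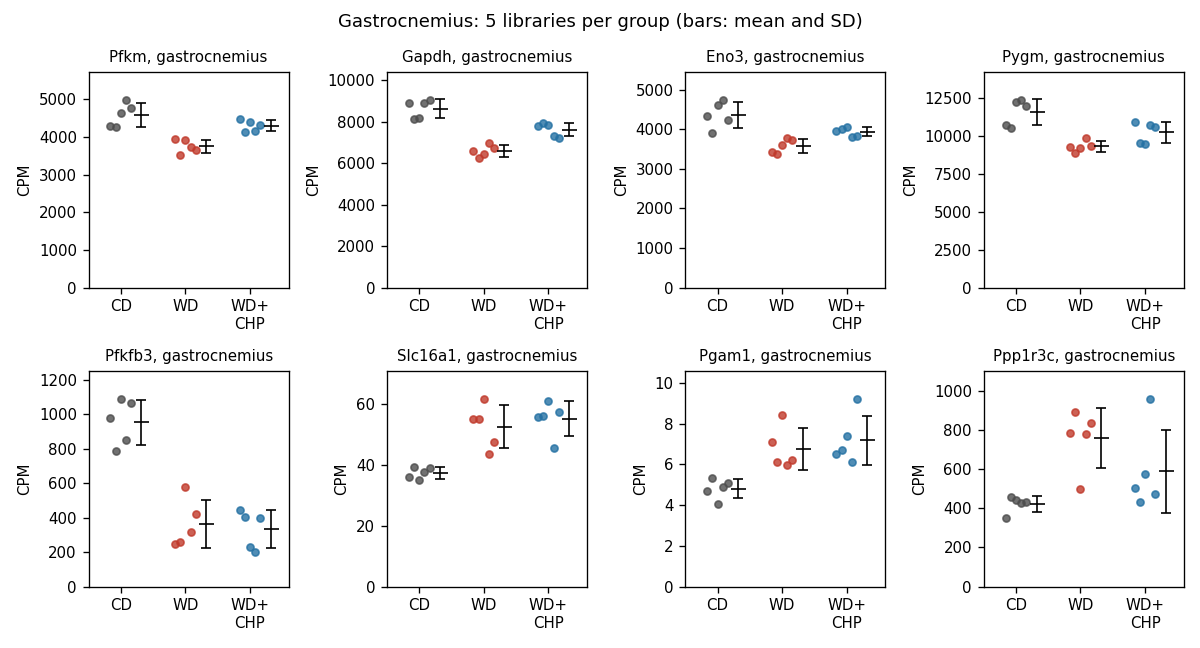
CPM (y axes, from 0) of 8 genes in each of the 5 gastrocnemius libraries of CD, WD and WD + CHP, with the mean and SD beside them. Pfkm, Gapdh, Eno3, Pygm and Pfkfb3 lie lower in all WD than in all CD libraries, and Slc16a1, Pgam1 and Ppp1r3c lie higher.

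Markers of fibre and cell types were read in the same libraries. In WD vs. CD of muscle, all 8 slow fibre markers were above 0 (median log2 fold change 0.59) and 9 of 10 fast fibre markers below 0 (median -0.15), with 0 of either list called. Summed slow fibre markers spanned 577 to 1596 CPM on CD, 783 to 2837 on WD and 942 to 1584 on WD + CHP. Summed fast fibre markers spanned 194827 to 236170, 173914 to 205963 and 177155 to 208911 CPM. Adipocyte markers spanned 45.7 to 83.9 CPM on CD, 77.6 to 91.5 on WD and 31.2 to 56.3 on WD + CHP, and 5 of 7 rose and 1 fell in WD vs. CD. Red blood cell markers spanned 2.59 to 12.2, 3.83 to 49.4 and 4.31 to 20.3 CPM, with 0 called. Macrophage markers were all 7 above 0 and endothelial markers 4 of 6 below 0, with 0 called. None of these 6 lists had a gene at 0 in every muscle library, and their part in the changes of the 37 genes was not tested.

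Total count scaling in place of TMM moved the split of the called muscle genes from 5 higher and 10 lower to 6 higher and 7 lower, 12 of them among the original 15. Over all genes the calls then were 9.77% higher and 2.24% lower, the median of all genes moved to 0.07 and that of the 37 to -0.05. Aldoa (adjusted p = 0.0567), Phkg1 (0.0685) and Pkm (0.138) were then not called, and their direction did not change. With only the CD and WD libraries in the fit, 4 higher and 7 lower were called, against 3.73% and 2.93% of all genes, and Aldoa (adjusted p = 0.0532), Phkg1 (0.0544), Pkm (0.0731) and Pygb (0.0827) were not called.

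The RefSeq start-site windows of 5 of these genes are printed. Gapdh, Pgk1 and Pfkfb3 had the lowest adjusted p among the transcripts that fell, Slc16a1 the lowest among those that rose, and Ppp1r3c the largest rise among those called. Each runs 5′ to 3′ on the gene's own strand (GRCm38.p6), from 250 bases before to 50 after the start. Capitals mark ACGTG read on either strand, a core found in many hypoxia response elements and in the CACGTG E-box that MYC and related factors bind. The windows are chr6:125165724-125166023 (minus strand) for Gapdh, chrX:106186850-106187149 (plus) for Pgk1, chr2:11553880-11554179 (minus, the first of 2 starts) for Pfkfb3, chr3:104638414-104638713 (plus) for Slc16a1 and chr19:36736555-36736854 (minus) for Ppp1r3c.
Gapdh: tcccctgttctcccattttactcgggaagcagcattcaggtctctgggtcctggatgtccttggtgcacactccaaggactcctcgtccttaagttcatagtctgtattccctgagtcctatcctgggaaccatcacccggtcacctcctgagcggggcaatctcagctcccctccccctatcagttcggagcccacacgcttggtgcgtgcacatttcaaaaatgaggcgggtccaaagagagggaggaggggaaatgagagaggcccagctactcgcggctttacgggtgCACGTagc
Pgk1: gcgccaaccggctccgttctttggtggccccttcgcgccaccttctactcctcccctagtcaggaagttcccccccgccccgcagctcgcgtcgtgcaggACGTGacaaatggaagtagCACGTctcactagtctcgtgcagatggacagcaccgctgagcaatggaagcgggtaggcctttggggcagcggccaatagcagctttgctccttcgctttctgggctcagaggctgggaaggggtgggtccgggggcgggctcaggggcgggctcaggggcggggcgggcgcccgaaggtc
Pfkfb3: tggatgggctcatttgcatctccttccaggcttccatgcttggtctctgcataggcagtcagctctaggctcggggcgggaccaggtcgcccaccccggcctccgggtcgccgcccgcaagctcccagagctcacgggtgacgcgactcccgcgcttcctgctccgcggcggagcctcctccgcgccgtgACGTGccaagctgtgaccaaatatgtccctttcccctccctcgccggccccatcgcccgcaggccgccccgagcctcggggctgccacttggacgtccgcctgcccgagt
Slc16a1: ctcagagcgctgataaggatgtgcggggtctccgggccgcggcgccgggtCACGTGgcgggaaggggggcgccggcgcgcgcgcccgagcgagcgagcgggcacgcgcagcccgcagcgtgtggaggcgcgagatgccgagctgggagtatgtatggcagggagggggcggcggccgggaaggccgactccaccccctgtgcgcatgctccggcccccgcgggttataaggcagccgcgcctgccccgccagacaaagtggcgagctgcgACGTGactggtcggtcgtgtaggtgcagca
Ppp1r3c: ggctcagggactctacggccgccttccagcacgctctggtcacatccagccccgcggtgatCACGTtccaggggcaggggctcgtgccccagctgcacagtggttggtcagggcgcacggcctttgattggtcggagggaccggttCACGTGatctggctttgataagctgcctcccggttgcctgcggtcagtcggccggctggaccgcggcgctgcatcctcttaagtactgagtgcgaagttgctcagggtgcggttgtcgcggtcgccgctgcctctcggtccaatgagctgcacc

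Falling and rising genes alike held the motif, 1 stretch each in Gapdh and this Pfkfb3 window and 2 each in Pgk1, Slc16a1 and Ppp1r3c. Over all 37 genes, 55 windows were listed, of which 25 (45.5%) held ACGTG, covering 21 genes. Among all 32851 mouse windows of that length it was in 19.6%, and windows were not matched for base composition. The full CACGTG, which contains ACGTG, was in 7 of the 55 windows (12.7%), among them Slc16a1, Ppp1r3c, Pfkm and the other start of Pfkfb3, against 7.15% of all windows. The GC box GGGCGG was in 30 of the 55 (54.5%) against 35.7%. The MEF2 motif of muscle genes was in 3 (5.45%), those of Pgam2, Ppp1r3a and Pfkfb1, against 3.19%. A match here is only a run of letters, and binding was not measured.

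In WD vs. CD of the kidney, 5 of 36 passed the test, against 9.65% of the 17120 genes tested, 4 higher (background 4.62%) and 1 lower (background 5.03%). As a count this was near the background. The median log2 fold change was 0.04, with 22 of 36 above 0, beside 0.00 over all genes. The 4 that rose were Gapdh, Pgk1, Pgam2 and Eno1, enzymes that the kidney also runs in reverse to make glucose, and the 1 that fell was Pygl.

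Gapdh measured 1502, 1604, 1598, 1494 and 1565 CPM on CD and 2004, 1784, 1821.5, 1938 and 1868 on WD. All WD libraries were above all CD libraries (log2 fold change 0.28 ± 0.04, adjusted p = 0.00101). Eno1, the main renal enolase, measured 436, 481, 507, 449 and 501 CPM on CD and 640, 559, 555, 598 and 594 on WD. It too showed no overlap (0.31 ± 0.06, adjusted p = 0.00248). Pgam2 measured 28.5, 30.8, 28.2, 28.5 and 30.2 CPM on CD and 36.9, 33.4, 35.0, 42.4 and 35.9 on WD, with WD wholly higher (0.33 ± 0.06, adjusted p = 0.00226). The calls of these 3 genes held in all 10 fits without 1 CD or WD library.

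Pgk1 and Pygl stood closer to the threshold. Pgk1 measured 205, 211, 232, 203 and 192 CPM on CD and 242, 229, 242, 234 and 230 on WD. CD replicate 3 lay within the WD range, and the change was 0.17 ± 0.05 (adjusted p = 0.0316). Pygl, the liver-type phosphorylase, measured 21.9, 23.2, 25.0, 21.3 and 26.3 CPM on CD and 18.0, 20.3, 18.8, 20.3 and 23.1 on WD, with overlap (-0.23 ± 0.07, adjusted p = 0.0436). The Pgk1 call was lost on removing any of CD replicates 1, 4 and 5 and WD replicates 1 and 3 (adjusted p up to 0.0744). The Pygl call was lost on removing any of CD replicates 2, 3 and 5 and WD replicates 1 to 4 (up to 0.120). It was also lost under total count scaling (0.0514), without the filter (0.0556), with the length and GC correction (0.0564) and with only the CD and WD libraries in the fit (0.0740). Among the rest, Ldhb (0.14, adjusted p = 0.0667), Pfkfb4 (-0.22, 0.0629) and Gbe1 (0.13, 0.0825) came nearest to passing. Slc16a1 varied widely between libraries, at 24.8 to 71.7 CPM on CD and 23.4 to 46.9 on WD (-0.35, adjusted p = 0.428).

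Kidney proximal tubule markers summed to 34420 to 37990 CPM on CD and 30705 to 34005 on WD, with 2 higher and 3 lower called of 8. The loop of Henle, distal tubule and collecting duct markers spanned 4155 to 4694 and 4256 to 4760 CPM. Of these 9, 5 were above 0 and 4 below, with 3 called higher and 0 lower. All 5 adipocyte markers tested were below 0 (median -0.90), 1 of them called, and 5 of 7 macrophage markers (median 0.18) and all 5 red blood cell markers (median 0.32) were above 0, with 0 called. Their part in the kidney changes was not tested.

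Whether the diet effect differed between the tissues was tested directly, as the log2 fold change of WD vs. CD in the gastrocnemius minus that in the kidney. Of 36 genes tested, 11 differed, against 6.24% of 13769 genes: 9 were lower in muscle relative to the kidney (background 2.76%) and 2 higher (background 3.48%). The widest separation by p was that of Gapdh, higher in the kidney and lower in muscle, with a difference of -0.66 ± 0.07 (adjusted p = 7.72e-07). Pgk1 differed likewise by -0.50 ± 0.07 (adjusted p = 5.83e-05). In the gastrocnemius Pgam2 measured 1270, 1126, 1219, 1308 and 1082 CPM on CD and 968, 945, 1027, 1183 and 1152 on WD, and Eno1 61.3 to 65.7 on CD and 57.7 to 61.6 on WD, both with overlap. Pgam2 and Eno1, called in the kidney alone, differed by -0.52 ± 0.09 (adjusted p = 0.000788) and -0.40 ± 0.07 (0.000311).

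Of the genes called in muscle alone, Pfkfb3 differed by -1.37 ± 0.28 (adjusted p = 0.00258), Pygm by -0.48 ± 0.11 (0.00608) and Pfkm by -0.41 ± 0.08 (0.000978). Pkm followed at -0.30 ± 0.07 (0.00816) and Gpi1 at -0.29 ± 0.06 (0.00295). Their kidney log2 fold changes were -0.02 for Pfkfb3, 0.17 for Pygm, 0.12 for Pfkm, 0.11 for Pkm and 0.04 for Gpi1, none of them called. The liver phosphofructokinase Pfkl was higher in muscle relative to the kidney by 0.38 ± 0.08 (0.00371), and Pgam1 by 0.41 ± 0.12 (0.0443). In the kidney Pfkl was at -0.04 and Pgam1 at 0.09, neither called. The Pgam1 difference held in 7 of 20 fits without 1 library. It was lost without gastrocnemius CD replicate 1, 3 or 4, gastrocnemius WD replicate 1 or 3, or any of kidney replicates 1 to 4 of CD and WD, at an adjusted p of up to 0.101. The other 10 differences held in all 20 fits. Ppp1r3c (0.92, adjusted p = 0.101) and Slc16a1 (0.84, 0.0789), although called in muscle and not in the kidney, did not pass the test of the difference. The same held for Aldoa (-0.23, 0.0664), Eno3 (-0.16, 0.391), Phkg1 (0.07, 0.818) and Pygb (0.20, 0.199). Pygl, called in the kidney alone, did not pass it either (-0.23, 0.566).

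**Figure D4:**
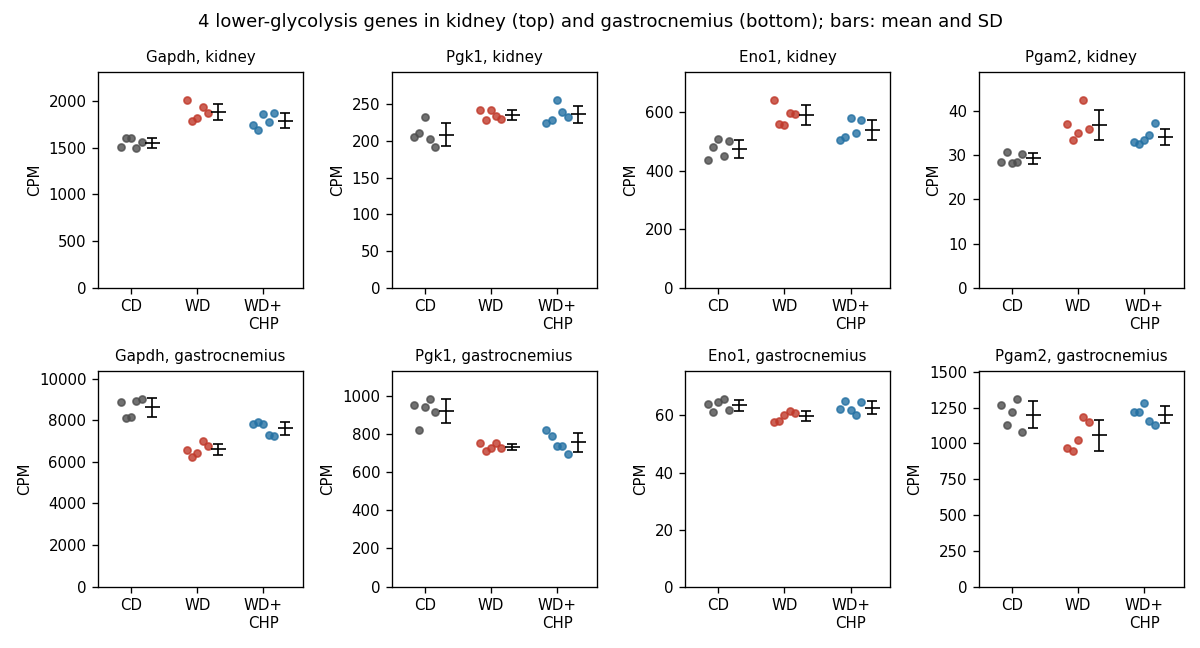
CPM (y axes, from 0) of Gapdh, Pgk1, Eno1 and Pgam2 in each library of CD, WD and WD + CHP, with the kidney in the top row and the gastrocnemius in the bottom row, and the mean and SD beside the points. In the kidney all WD libraries lie above all CD libraries for Gapdh, Eno1 and Pgam2, and in muscle all WD libraries lie below all CD libraries for Gapdh and Pgk1.

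The balance between isozymes was compared as the share of the leading gene in each of 12 families, per kilobase, by exact two-sided permutation tests with Benjamini-Hochberg adjustment over 48 tests. With 5 libraries per group the smallest p possible is 0.00794, which adjusted to 0.0346 in these tests. In WD vs. CD, 5 shares changed in muscle and 5 in the kidney. All of these had reached that smallest p, and their groups did not overlap. With 4 against 5 libraries the smallest p is larger, and leaving out 1 library gave between 0 and 11 called shares.

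In muscle the leading gene lost ground in all 5. The Pfkfb3 share of PFKFB was 86.3%, 84.97%, 85.6%, 82.7% and 85.1% in the CD libraries and 60.9%, 60.7%, 79.5%, 65.8% and 73.0% in WD (means 84.9% and 68.0%, adjusted p = 0.0346). The Slc16a3 share of the lactate transporters fell from 86.3% ± 0.571 (SD, n = 5) to 79.3% ± 3.82 (adjusted p = 0.0346), Slc16a1 holding most of the rest. For Pfkm, Pgam2 and Eno3 the losses were 0.0756, 0.104 and 0.0690 percentage points, from shares above 99% (each adjusted p = 0.0346).

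In the kidney the Pkm share of pyruvate kinase fell from 82.8% ± 0.981 to 76.9% ± 2.47 (SD, n = 5, adjusted p = 0.0346), as Pklr, the liver and proximal tubule pyruvate kinase, rose. Leading shares that grew were those of Pgam2 from 53.9% to 57.9%, Pygb from 59.2% to 62.1% and Eno1 from 96.4% to 97.3% (each adjusted p = 0.0346). The Pfkm share there went from 55.6% to 58.7% (adjusted p = 0.0586) and that of Gys1 from 56.1% to 61.2% (0.0586), neither of which passed.

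The neighbouring genes of glucose metabolism were read from lists of other glycolysis and pyruvate genes, other glycogen genes and regulators. In the kidney, where 9.65% of all genes were called in WD vs. CD, 7 of 30 other glycolysis and pyruvate genes rose and 2 fell, 0 of 18 other glycogen genes were called, and 1 of 11 regulators rose. Pdk4, the kinase that shuts off pyruvate dehydrogenase during fasting, was at 79.4 to 135 CPM on CD and fell to between 14.96 and 30.1 on WD (log2 fold change -2.10 ± 0.25, adjusted p = 0.000157). Pklr, at 24.9 to 28.1 CPM on CD, rose to between 37.5 and 46.9 (0.65 ± 0.08, adjusted p = 0.000160), and neither pair of groups overlapped. The AMP kinase subunit Prkag3 (1.18), the insulin-responsive glucose transporter Slc2a4 (0.37), the gluconeogenic enzyme Fbp1 (0.34) and Pdk1 (0.36) also rose, at adjusted p of 0.000226 to 0.00230.

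In muscle, where 8.63% of all genes were called, the same comparison raised 3 and lowered 4 of 24 other glycolysis and pyruvate genes, lowered 2 of 18 other glycogen genes, and raised 1 and lowered 1 of 11 regulators. Pdp2, the phosphatase that activates pyruvate dehydrogenase, was at 7.51 to 9.44 CPM on CD and fell to between 4.76 and 6.18 on WD (-0.65 ± 0.08, adjusted p = 0.000190). Its opponent Pdk4 fell as well, with 1043 to 1472 CPM on CD and 635 to 920 on WD (-0.76 ± 0.15, adjusted p = 0.00413), and neither gene's groups overlapped. Gpd2, of the glycerol phosphate shuttle, fell by 0.42 (adjusted p = 0.0168) and Pgm1, a phosphoglucomutase, by 0.22 (0.0264). Pdk1 rose by 0.22 (adjusted p = 0.0189).

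CHP given with the western diet changed none of the 37 genes past the threshold in either tissue. WD + CHP vs. WD had 0 of 36 called in the kidney, where the background was 0.105% (0.0993% higher, 0.00584% lower), and 0 of 37 in the gastrocnemius, where it was 0.409% (0.0649% higher, 0.344% lower). At an unadjusted p under 0.05 there were 6 in the kidney, 1 higher and 5 lower (background 11.4%, of which 6.31% higher and 5.13% lower), and 14 in muscle, 12 higher and 2 lower (background 12.5%, of which 5.36% higher and 7.15% lower). DESeq2 called 1 in the kidney (background 1.13%) and 3 in muscle (background 1.61%), and limma-voom 0 in both. The unadjusted counts depended on the libraries and settings. The kidney count was 2 without WD replicate 5 or WD + CHP replicate 4 or with a length and GC correction, 3 without WD + CHP replicate 2 or with that correction and the replicate block, and 10 under total count scaling. The muscle count was 9 without WD replicate 2 or with the length and GC correction, and 8 under total count scaling. This comparison uses the same WD libraries as WD vs. CD, so opposite signs in the 2 comparisons are not independent.

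In muscle, 29 of 37 genes were above 0 (median log2 fold change 0.08, all genes -0.01). The 70 other genes with a mean log2 CPM of 10 or more had a median of 0.06, with 0 called. Gapdh measured 7808, 7927, 7814, 7309 and 7226 CPM on WD + CHP, above every WD and below every CD library (0.21 ± 0.05, edgeR adjusted p = 0.124, DESeq2 adjusted p = 0.00249). Pfkm measured 4490, 4131, 4401, 4171 and 4309 CPM, likewise above every WD library but overlapping CD (0.20 ± 0.06, edgeR adjusted p = 0.153, DESeq2 0.0150). Pygb measured 9.08, 9.21, 8.95, 9.12 and 9.18 CPM, below every WD library (-0.29 ± 0.07, edgeR adjusted p = 0.121, DESeq2 0.0376). Over the alternatives other than leaving out a library, the adjusted p ran from 0.00249 to 0.195 for Gapdh, from 0.0150 to 0.252 for Pfkm and from 0.0376 to 0.227 for Pygb.

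The called genes with the largest diet effects in muscle sat differently. Pfkfb3 on WD + CHP measured 446, 403, 231, 202 and 397 CPM, within or below the WD range and under every CD library (-0.12 ± 0.24, adjusted p = 0.887). Slc16a1 measured 55.8, 55.9, 60.8, 45.5 and 57.4 CPM, overlapping WD and above every CD library (0.07, adjusted p = 0.804). Ppp1r3c measured 505, 432, 577, 958 and 473 CPM, spanning both other groups, with replicate 4 far above the rest (-0.37, adjusted p = 0.442). In the same comparison 4 of 7 adipocyte markers were called lower. All 4 red blood cell markers tested (median -1.37), all 7 macrophage markers (median -0.36) and all 8 slow fibre markers (median -0.28) were below 0, with 0 called in each list. The part of these markers was not tested.

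The share of Pygm among the phosphorylases was the only share of the 12 families in either tissue that passed in WD + CHP vs. WD. It was 99.9% in both groups, 0.0247 percentage points higher with CHP (exact permutation adjusted p = 0.0346, n = 5 per group), as the trace level of Pygb was lower.

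In the kidney 25 of 36 genes were below 0 in WD + CHP vs. WD (median -0.06, all genes -0.01). Proximal tubule markers summed to 33638 to 38617 CPM on WD + CHP against 30705 to 34005 on WD. As single genes 5 of these 8 were above 0 and 3 below (median 0.05). All 6 endothelial markers (median -0.10) and 6 of 7 macrophage markers (median -0.09) were below 0, and all 5 adipocyte markers tested (median 0.80) above 0, with 0 called in each of these 4 lists. Their part was not tested. Pfkp, the platelet-type phosphofructokinase, measured 36.98, 37.03, 38.7, 40.9 and 39.5 CPM on WD and 46.7, 46.0, 47.0, 49.6 and 38.0 on WD + CHP. Only WD + CHP replicate 5 lay within the WD range (0.24 ± 0.07, adjusted p = 0.170), and without it the adjusted p was 0.0392. DESeq2 gave 0.0498. Over the other alternatives the edgeR and limma-voom adjusted p reached 0.371. Exons of Pfkp and of Pitrm1 on the opposite strand share 748 bases, and Pitrm1 had a mean of 2397 kidney counts beside 1587 for Pfkp. Pygb measured 33.0, 35.1, 33.9, 35.6 and 37.5 CPM on WD and 33.1, 31.8, 30.2, 32.2 and 33.1 on WD + CHP, with narrow overlap (-0.13 ± 0.05, adjusted p = 0.330). Gys1 measured 58.5, 57.2, 55.4, 54.8 and 57.8 CPM on WD and 51.9, 47.6, 52.2, 47.4 and 60.2 on WD + CHP, where replicate 5 again stood apart (-0.13 ± 0.05, adjusted p = 0.370).

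**Figure D5:**
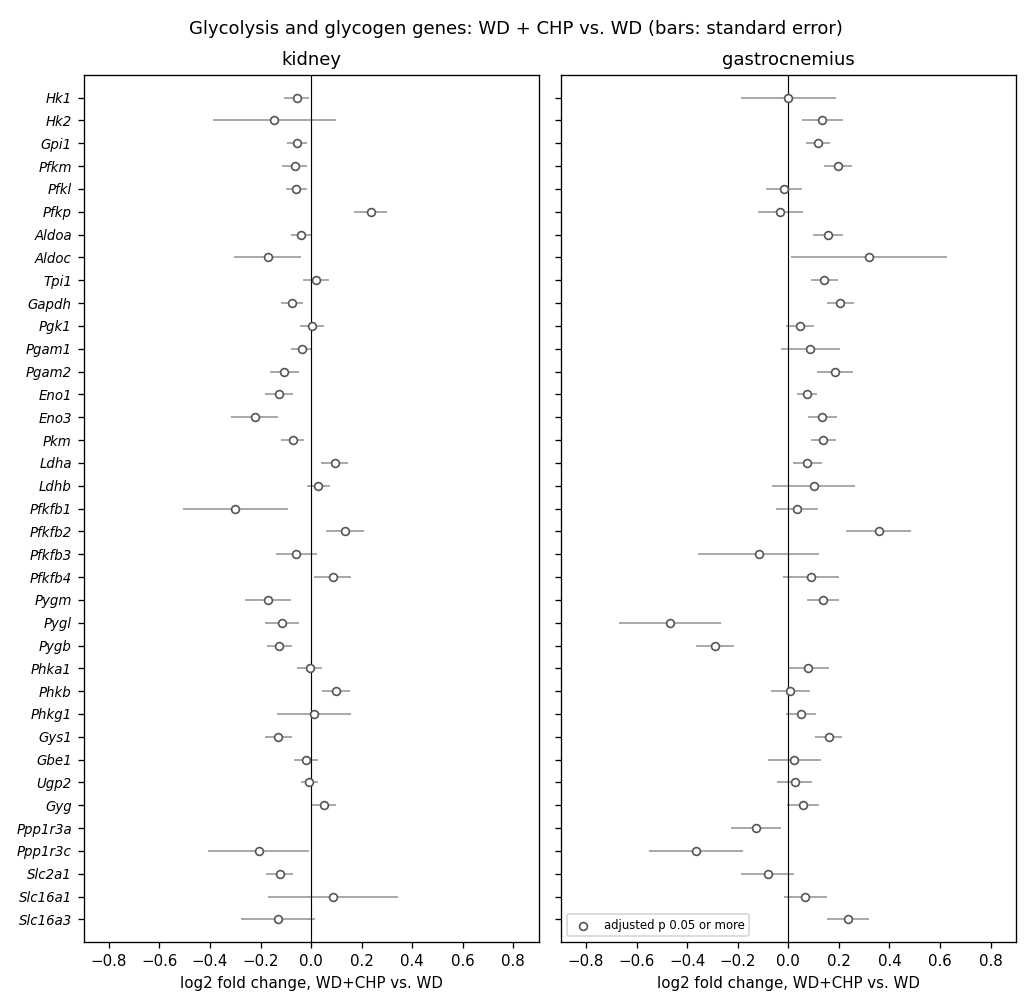
Log2 fold change of WD + CHP vs. WD (x axis) with its standard error (bars) for each of the 37 genes (y axis), kidney on the left and gastrocnemius on the right. No point passed an adjusted p of 0.05 in edgeR, 25 of 36 kidney genes lie below 0 and 29 of 37 muscle genes lie above 0.

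The CHP effect was also compared between tissues. Of 36 genes, 0 differed at an adjusted p under 0.05 (background 0.712%), and 12 at an unadjusted p under 0.05 (background 14%). Gapdh came nearest, 0.28 ± 0.07 higher in muscle relative to the kidney (adjusted p = 0.0525), followed by Gys1 at 0.29 (0.0692), Eno3 at 0.36 and Pfkm at 0.26 (both 0.0921). DESeq2 called 5 of these differences (background 2.14%).

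Exons of 14 of the 37 genes overlap exons of another counted gene, for 11 of them only on the opposite strand, and strand handling was not given in the sources used here. Phkg1 and Pfkfb1 in the kidney are the plainest cases. Phkg1 had a mean of 48.7 counts beside 494 for the overlapping Sumf2, and Pfkfb1 36 beside 414 for Apex2, so that their kidney levels are uncertain. Gapdh, Pgk1, Eno1 and Ldha also have processed copies elsewhere in the mouse genome, and how reads matching several places were counted was not given. The symbol Aldoa stood on a further row with 147 to 350 counts in muscle libraries, which was kept apart.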

How the data were processed

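RNA was sequenced on a BGISEQ instrument after polyA selection, and reads were aligned to the mouse genome (GRCm38/mm10) with STAR 2.7.3a per the submitters' processing notes. The values used were raw counts per gene, deposited by the authors as 1 table per tissue. The counting tool, its strand setting and its treatment of reads with several matches were not given in the sources used here. Totals per library, given in the report, set the precision.

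Each tissue was fitted with all 3 diet groups in edgeR 4.0.16 (R 4.3.3): filterByExpr with a minimum count of 10, TMM scaling, and the quasi-likelihood test. P-values were two-sided, were adjusted by Benjamini-Hochberg across every gene that passed the filter, and were called below 0.05. Differences between tissues were interaction terms over all 30 libraries. Isozyme shares were compared by exact permutation of the libraries (252 splits, SciPy 1.17.1). Exon lengths and start-site windows came from GENCODE M21 and RefSeq annotations of GRCm38. The pipeline was tested on simulated data. Replicates of a group did not agree within sampling noise (chi-square of 8.26 to 69.0 per gene), so that no library was counted as a copy.

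Described in full were genes past the threshold in any comparison and the 3 of lowest p in each comparison within a tissue, and up to 6 of lowest p from the other pathway lists. For genes called in muscle alone that differed between tissues, the kidney side is given as its log2 fold change. Results for 2 further genes of those lists are not reported here. The 37 genes and all lists were chosen with earlier results of these data known. Alternatives were DESeq2 1.42.0, limma-voom 3.58.1, other scalings and filters, a replicate block, a length and GC correction, a looser threshold, only the 2 groups compared, and leaving out each library.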

Additional observations from a re-analysis of the deposited data

Results flagged for a closer look

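In 4 of 96 groups of 5 libraries examined, the highest or lowest library stood further from its nearest neighbour than Dixon's 95% critical value allows, where chance alone gives about 1 in 20. Pfkm in kidney WD + CHP replicate 2 was at 40.9 CPM, with the others at 46.2 to 48.2. The other 3 were all Ppp1r3c in the gastrocnemius: CD replicate 1 was low at 353 CPM (others 428 to 456), WD replicate 3 low at 500.5 CPM (others 781 to 894), and WD + CHP replicate 4 high at 958 CPM (others 432 to 577).

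The effect of WD vs. CD on 11 genes differed between the tissues in edgeR's interaction test, given as gastrocnemius minus kidney on the log2 scale. It was lower in muscle for Pfkfb3 (-1.37), Gapdh (-0.66), Pgam2 (-0.52), Pgk1 (-0.50), Pygm (-0.48), Pfkm (-0.41), Eno1 (-0.40), Pkm (-0.30) and Gpi1 (-0.29), and higher for Pgam1 (0.41) and Pfkl (0.38).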

How the results depend on the processing

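The count of called genes in muscle WD vs. CD (15) ran from 11 with only the 2 groups in the fit (6.66% of all genes) to 17 with the length and GC correction (10.6%), against 8.63% as reported. Leaving out 1 library gave 12 to 17 (6.21% to 9.14% of all genes). The kidney count (5) was 8 at an adjusted p under 0.1, where the share over all genes rose from 9.65% to 15.5%. On leaving out 1 library it was 3 to 5 (6.61% to 10.1% of all genes), being 3 without CD replicate 5, WD replicate 1 or WD replicate 3. In WD + CHP vs. WD, the 0 calls became 1 in the kidney and 3 in muscle with DESeq2 (1.13% and 1.61% of all genes). Leaving out 1 library gave 0 to 1 in the kidney (1 without WD + CHP replicate 5, 0.272% of all genes) and 0 in muscle. The 11 tissue differences in WD vs. CD (6.24% of all genes) ran from 10 with the replicate block (5.96%) to 14. That highest count came with DESeq2 (7.83%) and at an adjusted p under 0.1 (9.97%). On leaving out 1 library they stayed within 10 to 13 (5.05% to 7.12%). The 0 differences in WD + CHP vs. WD became 4 at an adjusted p under 0.1 (2.24% of all genes), 1 with TMM over all 30 libraries (0.675%) and 5 with DESeq2 (2.14%), against 0.712% of all genes as reported. They became 0 to 2 on leaving out 1 library (0.247% to 1.47%). The 11 called isozyme shares ran from 0 to 11 on leaving out 1 library, by construction of the smaller test. No called result reversed. With counts not divided by length, and the leading genes kept as chosen per kilobase, 12 shares were called, 11 of them the same. The uncalled kidney Pygb share in WD + CHP vs. WD then turned from 0.0807 to -0.0698 percentage points. The causes of these shifts were otherwise not tested.

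Replicate numbers did not pair the samples: same-numbered libraries correlated at -0.091 to 0.144 in the kidney and -0.126 to 0.146 in muscle. With the replicate block, 5 kidney and 14 muscle genes were called in WD vs. CD (9.24% and 7.44% of all genes), 0 in WD + CHP vs. WD in either tissue, and 10 and 0 tissue differences (5.96% and 0.668%). The block lost the muscle call of Pkm (adjusted p = 0.0626, or 0.0557 with the length and GC correction) and the tissue difference of Pgam1 (0.0634). Without the filter the muscle call of Pygb was lost (0.0607). Low counts limited Aldoc in muscle and Phkg1 and Pfkfb1 in the kidney.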
